A study of Mus musculus with 12 samples.

Results

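The 8 genes described here encode transcription factors that set or oppose macrophage identity: Spi1, Cebpa, Cebpb, Cebpd, Runx1, Maf, Bcl6 and Prdm1. They were taken by name from a fixed list and matched to Ensembl identifiers, and all 8 were found among the 41388 genes of each count file and among the 13030 genes with enough counts to be tested. RNA-seq counts were available for 12 libraries of cultured bone marrow cells from C57BL/6 mice, 3 in each of 4 groups. Mice labelled ASXl2flox gave the groups flox_BMM and flox_OC. Mice labelled ASXL2LysM, LysM Cre positive and marked KO, gave KO_BMM and KO_OC. Asxl2 encodes a chromatin regulator, and LysM Cre is a recombinase driven from the lysozyme locus Lyz2 in myeloid cells. All cells grew for 5 days in alpha MEM with 10% FBS, were replated, and spent 2 more days in 2% M-CSF, the growth factor of macrophages. The BMM groups (bone marrow macrophages) received nothing else, and the OC groups (labelled osteoclast) also received 50 ng/ml RANKL, the cytokine that turns macrophage precursors into osteoclasts. The sources used here state no age, sex or pooling of the mice, and no group is labelled as Cre positive without floxed Asxl2, so effects of Cre, of the altered Lyz2 locus and of Asxl2 loss cannot be told apart. Whether the 3 libraries of each group stem from different mice or dishes is not labelled, so the p-values reflect the scatter of these libraries, possibly technical scatter.

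Macrophages and osteoclasts share a myeloid precursor, and PU.1, the ETS protein encoded by Spi1, is needed in mice for both lineages. The C/EBP proteins are basic leucine zipper factors that bind with PU.1 at many macrophage enhancers, and RUNX1 is a haematopoietic DNA-binding protein that acts with CBFB. MAF (c-MAF) is a zipper protein that helps to hold macrophages in a mature, non-dividing state, and BCL6 is a zinc finger repressor that has been linked in mice to silence of osteoclast genes. PRDM1 (BLIMP1), also a zinc finger repressor, is known in mouse osteoclast precursors to be induced by RANKL and to silence Irf8 and Bcl6.

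Libraries held 18489873 to 21667237 counts. Asxl2 itself averaged 93.1 ± 3.01 CPM (counts scaled to sequencing depth with TMM factors; mean ± SD, n = 3 throughout) in flox_BMM and 15.1 ± 0.265 in KO_BMM, and 73.4 ± 2.27 in flox_OC against 13.7 ± 1.24 in KO_OC. All 10 macrophage markers were counted in every library, with a summed level of 12100 to 12350 CPM in flox_BMM, 10440 to 10530 in KO_BMM, 5430 to 5504 in flox_OC and 5394 to 5457 in KO_OC. The 10 osteoclast markers summed to 743 to 765 CPM in flox_OC and 379 to 396 in KO_OC, above the 206 to 243 CPM of the BMM libraries. Nfatc1 was the largest part, at 350.1 CPM in flox_OC, 198 in KO_OC, 99.3 in flox_BMM and 116 in KO_BMM. Of 8 tested markers, 7 rose and 1 fell with RANKL in each genotype, where 37.0% of all tested genes rose in flox and 35.5% in KO cells. Among the 10 markers, the calcitonin receptor gene Calcr had at most 1 count in any library, and Oscar at most 5.

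In flox cells RANKL changed all 8 genes past an edgeR adjusted p of 0.05, as it did 74.8% of all tested genes. Prdm1 rose 2.45-fold, and Spi1, Cebpb and Runx1 rose by less. Maf fell 15.0-fold, Cebpa 4.05-fold and Cebpd 2.24-fold, and Bcl6 fell 1.34-fold. In KO cells the same treatment moved Prdm1 only 1.19-fold and Maf 7.24-fold, while Bcl6 and Runx1 did not pass the test. KO_OC stood 5.17-fold below flox_OC in Prdm1 and 2.19-fold above it in Maf.

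**Figure D1:**
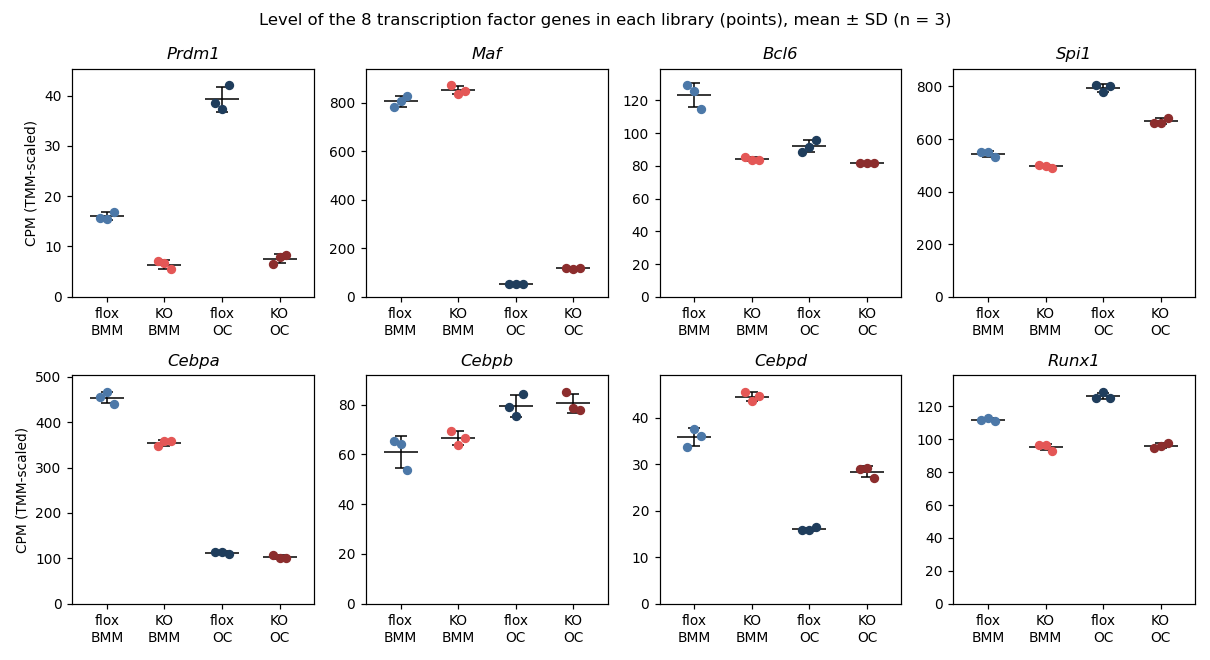
Level of each gene in CPM (vertical axes from 0) in the 3 libraries of each group, as points, with the group mean and SD as bars. In Prdm1 the 3 flox_OC libraries lie between 37.3 and 42.0 CPM and every KO library lies at 8.28 or below; in Maf the BMM libraries lie at 781 CPM or above and the OC libraries at 120.2 or below.

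Levels of different genes were compared per kilobase of exon, as CPM per kb. For Cebpb this value is less certain, since 20.7% of its exonic bases overlap another gene. In flox_BMM, Spi1 stood highest at 202 ± 3.73 CPM per kb, followed by Cebpa at 172 ± 4.75 and Maf at 97.7 ± 2.72. Cebpb (40.6 ± 4.27), Cebpd (30.4 ± 1.64), Bcl6 (18.4 ± 1.12) and Runx1 (9.47 ± 0.0943) came next, and Prdm1 was lowest at 2.92 ± 0.133 CPM per kb. The order was the same in KO_BMM. In flox_OC the ends of the order had changed: Spi1 stayed first at 295 ± 5.43 CPM per kb, but Maf, at 6.51 ± 0.134, was now last, below Prdm1 at 7.16 ± 0.448. In KO_OC Maf stood at 14.3 ± 0.403 CPM per kb, above Bcl6 at 12.2 ± 0.0344, and Prdm1 was last again at 1.38 ± 0.172.

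Prdm1 (ENSMUSG00000038151), the repressor gene of the set, lies on chromosome 10 from 44437177 to 44528501 (GRCm38, minus strand) and has 9 merged exons, none of which overlaps another gene. RefSeq starts its transcripts inside that span. The window from 250 bases before to 50 bases after this start is shown because it holds 1 match to TGANTCA. This is a loose form of the AP-1 motif that allows any base at its centre. The match, TGAATCA, has A at the centre and so met only the loose form. It is in capitals and begins 48 bases before the start.
Prdm1 window (GRCm38.p6, chr10:44458699-44458998, minus strand): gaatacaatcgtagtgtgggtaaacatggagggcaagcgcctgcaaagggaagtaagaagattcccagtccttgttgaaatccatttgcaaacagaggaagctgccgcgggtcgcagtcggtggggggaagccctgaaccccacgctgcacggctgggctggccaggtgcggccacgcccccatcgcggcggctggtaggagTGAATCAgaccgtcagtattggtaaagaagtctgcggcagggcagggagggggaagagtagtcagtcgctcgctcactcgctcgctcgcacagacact
The loose AP-1 form, searched on both strands, occurs in 7.81% of the 32851 RefSeq windows of this length. None of the PU.1 (GAGGAAGT), C/EBP (TTGCNNAA), RUNX (TGTGGT), PRDM1 (AGNGAAAG), BCL6 (TTCCTNGAA) or MAF (TGCTGAC) motifs was found in this window. A match describes the letters of the window and does not show binding.

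The 3 flox_BMM libraries held 15.8, 15.5 and 16.9 CPM of Prdm1 and the 3 flox_OC libraries 38.6, 37.3 and 42.0 CPM. Every flox_OC library was thus above every flox_BMM library, and the rise passed the test (1.29 ± 0.066 SE in log2 units, edgeR adjusted p = 6.18e-23). With the KO genotype, Prdm1 was low in both cultures, at 7.11, 6.64 and 5.43 CPM in KO_BMM and 6.51, 7.97 and 8.28 CPM in KO_OC. These 2 groups overlapped. Their difference reached log2 fold change 0.25 (SE 0.11, edgeR adjusted p = 0.0382) with all libraries, but the call was lost without flox_BMM library 2 (0.24, adjusted p = 0.0518), KO_BMM library 3 (0.14, adjusted p = 0.304), KO_OC library 2 (0.21, adjusted p = 0.134) or KO_OC library 3 (0.18, adjusted p = 0.195). It was also lost with DESeq2 and with no low-count filter. The RANKL effect in KO minus that in flox was -1.04 on the log2 scale (SE 0.13, edgeR adjusted p = 1.63e-08). By genotype, Prdm1 fell 2.52-fold in BMM (-1.33 ± 0.095 SE in log2 units, edgeR adjusted p = 2.01e-16) and 5.17-fold in OC (-2.37 ± 0.075 SE in log2 units, edgeR adjusted p = 1.11e-29), with no overlap of the groups in either culture. These are bulk samples, in which fewer cells expressing a gene and less RNA per cell cannot be told apart. Counts of Prdm1 ran from 112 to 863 per library, the lowest of the 8 genes.

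Prdm1 is also the master repressor gene of plasma cells, and the B and plasma cell markers were read beside it. Of the 9 markers, Ms4a1 and Pax5 had at most 3 counts in any library, and Jchain at most 4. Their summed level was 165 to 177 CPM in flox_BMM, 154 to 158 in KO_BMM, 516 to 537 in flox_OC and 332 to 349 in KO_OC, and it came almost wholly from Sdc1 (10.2 to 451 CPM), Xbp1 (70.6 to 129.7 CPM) and Ighm (7.07 to 26.6 CPM).

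Maf (ENSMUSG00000055435) lies on chromosome 8 from 115682942 to 115707794 (minus strand), and 5.34% of its exonic bases overlap the antisense model Gm15655, which had 0 counts in every library. The flox_BMM libraries held 781, 808 and 826 CPM and the KO_BMM libraries 871, 837 and 848 CPM. The flox_OC libraries held 52.4, 54.5 and 54.1 CPM and the KO_OC libraries 119, 114 and 120 CPM. All 4 groups were separate, in the order KO_BMM, flox_BMM, KO_OC, flox_OC. RANKL lowered Maf in flox cells (-3.91 ± 0.034 SE in log2 units, edgeR adjusted p = 1.18e-54) and in KO cells (-2.86 ± 0.031 SE in log2 units, edgeR adjusted p = 1.41e-50). The fall was smaller in KO cells by 1.05 on the log2 scale (SE 0.045, edgeR adjusted p = 2.88e-23). In flox cells 99.4% of the tested genes had a smaller absolute change with RANKL than Maf. By genotype the OC groups differed 2.19-fold (1.13 ± 0.036 SE in log2 units, edgeR adjusted p = 8.05e-30), whereas the BMM groups differed 1.06-fold (0.08 ± 0.027 SE in log2 units, edgeR adjusted p = 0.0145). The small BMM difference did not pass without KO_BMM library 1 (0.07, adjusted p = 0.0942) or when only the BMM groups were fitted (0.08, adjusted p = 0.0501).

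Bcl6 (ENSMUSG00000022508) lies on chromosome 16 from 23965052 to 23988852 (minus strand), and no other gene overlaps its exons. RefSeq gives it 2 start sites. The window of the downstream start is shown because it holds 1 match to the BCL6 motif TTCCTNGAA, in capitals, which begins 168 bases before the start; this motif occurs in 1.59% of all windows.
Bcl6 window (GRCm38.p6, chr16:23981234-23981533, minus strand): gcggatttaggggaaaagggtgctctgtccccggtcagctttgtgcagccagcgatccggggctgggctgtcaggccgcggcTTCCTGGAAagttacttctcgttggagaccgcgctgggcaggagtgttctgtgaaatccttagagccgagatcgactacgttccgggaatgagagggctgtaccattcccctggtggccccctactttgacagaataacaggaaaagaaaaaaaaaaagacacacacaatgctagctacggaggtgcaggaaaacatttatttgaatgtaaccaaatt
The window of the upstream start held no match to any of the 7 motifs.

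Levels of Bcl6 were 129, 126 and 115 CPM in flox_BMM, 85.5, 83.7 and 83.6 CPM in KO_BMM, 88.5, 91.8 and 95.7 CPM in flox_OC and 81.9, 81.5 and 81.6 CPM in KO_OC. The flox_BMM libraries stood apart from the other 9, which lay within a narrow band, although the ranges of neighbouring groups did not overlap. RANKL lowered Bcl6 in flox cells (-0.42 ± 0.037 SE in log2 units, edgeR adjusted p = 2.63e-14). In KO cells the change was -0.05 (SE 0.040, edgeR adjusted p = 0.309), and with scaling by library size alone it was 0.090 (adjusted p = 0.0349), the opposite sign. The difference of the 2 effects was 0.38 (SE 0.054, edgeR adjusted p = 3.52e-07). Bcl6 fell with the KO genotype by 0.55 on the log2 scale in BMM (SE 0.038, edgeR adjusted p = 5.23e-17) and by 0.17 in OC (SE 0.039, edgeR adjusted p = 3.10e-04). Set against Prdm1 per kilobase, Bcl6 stood 6.32 ± 0.642 times as high in flox_BMM and 1.92 ± 0.0834 times in flox_OC. In KO cells it stood 10.9 ± 1.49 times as high in BMM and 8.93 ± 1.22 times in OC, and these last 2 groups overlapped.

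Spi1 (ENSMUSG00000002111), on chromosome 2 from 91082390 to 91115756 (plus strand), was the gene with the highest level per kilobase in every group. It stood at 549, 549 and 532 CPM in flox_BMM, 501, 498 and 491 CPM in KO_BMM, 804, 778 and 803 CPM in flox_OC and 663, 663 and 681 CPM in KO_OC. No pair of groups overlapped. RANKL raised it 1.46-fold in flox (0.55 ± 0.026 SE in log2 units, edgeR adjusted p = 4.67e-24) and 1.35-fold in KO cells (0.43 ± 0.027 SE in log2 units, edgeR adjusted p = 1.03e-19). The effects differed by -0.12 on the log2 scale (SE 0.037, edgeR adjusted p = 0.015). The KO genotype lowered Spi1 by 0.13 in BMM (edgeR adjusted p = 8.48e-05) and by 0.25 in OC (edgeR adjusted p = 3.43e-11) on the same scale.

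Runx1 (ENSMUSG00000022952) lies on chromosome 16 from 92601466 to 92826149 (minus strand), with 0.896% of its exonic bases inside the antisense model Gm26626, which had at most 7 counts in a library. RefSeq lists a distal and a proximal start, well known as separate promoters of this gene. The distal window is shown because it holds 2 matches to the RUNX motif TGTGGT, both on the opposite strand and so written ACCACA, which begin 28 and 36 bases after the start; 16.8% of all windows hold at least 1.
Runx1 distal window (GRCm38.p6, chr16:92826025-92826324, minus strand): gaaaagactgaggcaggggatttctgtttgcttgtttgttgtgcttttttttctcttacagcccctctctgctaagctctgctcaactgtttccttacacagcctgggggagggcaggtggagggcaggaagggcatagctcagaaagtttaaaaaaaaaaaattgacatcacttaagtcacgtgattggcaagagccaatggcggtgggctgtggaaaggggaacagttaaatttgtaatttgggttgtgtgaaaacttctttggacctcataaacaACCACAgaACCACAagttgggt
The proximal window held no match, and neither did the windows of Cebpa and Cebpb. Windows for Maf, Cebpd and Spi1 were not used here.

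Runx1 stood at 112, 113 and 111 CPM in flox_BMM and 125, 129 and 125 CPM in flox_OC. In KO cells it stood at 96.3, 96.8 and 93.1 CPM in BMM and 94.6, 96.0 and 97.6 CPM in OC, and only these 2 groups overlapped. RANKL raised it in flox cells by 0.17 on the log2 scale (SE 0.033, edgeR adjusted p = 6.05e-06). In KO cells the change was 0.01 (SE 0.034, edgeR adjusted p = 0.797), and with library size alone it passed at 0.15 (adjusted p = 1.64e-04). The effects differed by -0.16 (SE 0.047, edgeR adjusted p = 0.00865). Runx1 fell with genotype by 0.23 in BMM (edgeR adjusted p = 1.51e-07) and by 0.39 in OC (edgeR adjusted p = 2.85e-14).

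The 3 C/EBP genes behaved differently from each other. Cebpa (ENSMUSG00000034957), needed for granulocyte and monocyte progenitors, lies on chromosome 7 from 35119293 to 35121926 (plus strand) as 1 exon. Its level was 456, 466 and 441 CPM in flox_BMM, 347, 358 and 358 CPM in KO_BMM, 115, 113 and 109 CPM in flox_OC and 108, 101 and 100.1 CPM in KO_OC. Each group lay clear of the next. RANKL lowered it 4.05-fold in flox (-2.02 ± 0.031 SE in log2 units, edgeR adjusted p = 2.68e-44) and 3.45-fold in KO cells (-1.79 ± 0.032 SE in log2 units, edgeR adjusted p = 1.30e-41), a difference of 0.23 (SE 0.045, edgeR adjusted p = 7.74e-05). The KO genotype lowered Cebpa by 0.36 in BMM (edgeR adjusted p = 9.10e-15) and by 0.12 in OC (edgeR adjusted p = 0.00279).

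Cebpb (ENSMUSG00000056501), a C/EBP gene tied to inflammatory activation, lies on chromosome 2 from 167688915 to 167690418 (plus strand). Of its exonic bases, 20.7% overlap Tmem189 on the other strand, and since strand was ignored in the counting, reads of that stretch cannot be assigned to one gene; Tmem189 itself had 1711 to 2355 counts per library. Its level was 65.3, 64.3 and 53.7 CPM in flox_BMM, 69.3, 63.9 and 66.6 CPM in KO_BMM, 79.0, 75.6 and 84.3 CPM in flox_OC and 84.9, 78.8 and 77.7 CPM in KO_OC. The genotypes overlapped in both cultures, and the OC libraries lay above the BMM libraries. RANKL raised Cebpb in flox (0.38 ± 0.061 SE in log2 units, edgeR adjusted p = 1.78e-05) and in KO cells (0.27 ± 0.060 SE in log2 units, edgeR adjusted p = 5.09e-04). The difference of these effects, -0.11 (SE 0.086, edgeR adjusted p = 0.434), did not pass. By genotype the log2 fold change was 0.12 in BMM (SE 0.063, edgeR adjusted p = 0.142) and 0.02 in OC (SE 0.058, edgeR adjusted p = 0.866). The BMM value passed without flox_BMM library 1 (0.18, adjusted p = 0.0404), with library size alone and with no low-count filter.

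Cebpd (ENSMUSG00000071637), which encodes an acute-phase C/EBP factor, lies on chromosome 16 from 15887286 to 15888466 (plus strand). It stood at 33.8, 37.7 and 36.1 CPM in flox_BMM, 45.5, 43.6 and 44.6 CPM in KO_BMM, 15.9, 15.8 and 16.4 CPM in flox_OC and 29.0, 29.2 and 27.04 CPM in KO_OC. All 4 groups were separate, and KO lay above flox in each culture. RANKL lowered Cebpd in flox (-1.16 ± 0.058 SE in log2 units, edgeR adjusted p = 2.75e-23) and in KO cells (-0.65 ± 0.050 SE in log2 units, edgeR adjusted p = 4.10e-16), and the effects differed by 0.51 (SE 0.078, edgeR adjusted p = 1.05e-06). Cebpd rose with the KO genotype by 0.31 in BMM (SE 0.049, edgeR adjusted p = 7.44e-07) and by 0.83 in OC (SE 0.060, edgeR adjusted p = 3.18e-16).

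Read per kilobase, the summed level of the 3 C/EBP genes was 234 to 251 CPM per kb in flox_BMM, 215 to 218 in KO_BMM, 107 to 111 in flox_OC and 113 to 122 in KO_OC. Cebpa made up 70.9% ± 0.699 of that sum in flox_BMM and 62.1% ± 1.12 in KO_BMM. In OC the share of Cebpa was 39.0% ± 1.67 in flox and 33.5% ± 0.266 in KO cells, below that of Cebpb, at 48.5% ± 1.66 and 45.9% ± 0.50. Since 20.7% of the exonic bases of Cebpb overlap Tmem189, its level per kilobase, and with it all 3 shares, is less certain. Cebpd held 12.5% ± 0.718 in flox_BMM and 12.5% ± 0.140 in flox_OC, against 17.4% ± 0.336 in KO_BMM and 20.7% ± 0.678 in KO_OC.

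**Figure D2:**
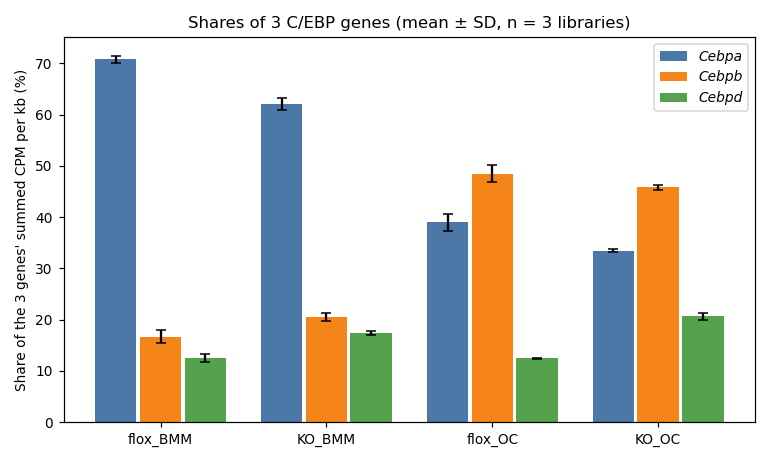
Share of Cebpa, Cebpb and Cebpd in their summed CPM per kb (vertical axis, percent, from 0) in each group; bars are means of 3 libraries and error bars SD. Cebpa leads in BMM with 70.9% in flox and 62.1% in KO cells, and Cebpb leads in OC with 48.5% and 45.9%. The overlap of Cebpb with Tmem189 makes these shares less certain.

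Taking the RANKL comparisons as a whole, 4 of the 8 genes rose and 4 fell in flox cells, where 37.0% of all tested genes rose, 37.8% fell and 74.8% passed in all. In KO cells 3 rose, 3 fell and 2 did not pass, where 35.5% of all genes rose, 35.0% fell and 70.5% passed in all. Among the 3 that rose is Prdm1, whose call was lost under several alternatives, as given above. Changes over 1.5-fold that passed were seen in 4 of the 8 genes in flox cells, against 34.9% of all tested genes, and in 3 in KO cells, against 28.2%. The BMM and OC libraries did not overlap in 8 of the 8 genes in flox cells, against 75.2% of all genes, and in 6 in KO cells, against 73.4%. The median absolute log2 fold change of the 8 genes was 0.86 in flox and 0.35 in KO cells, beside 0.41 and 0.34 over all tested genes. The 2 comparisons share no library. The difference of the RANKL effects passed in 7 of the 8 genes, positive in Maf, Bcl6, Cebpa and Cebpd and negative in Prdm1, Spi1 and Runx1, where 21.9% of all genes passed, 12.3% with a positive and 9.53% with a negative sign. It exceeded 1.5-fold in 2 of the 8, Maf and Prdm1, against 3.34% of all genes. In each of these 7 genes the effect was nearer to 0 in KO than in flox cells, as it was in 78.6% of the 2849 genes that passed this test and in 65% of all tested genes.

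**Figure D3:**
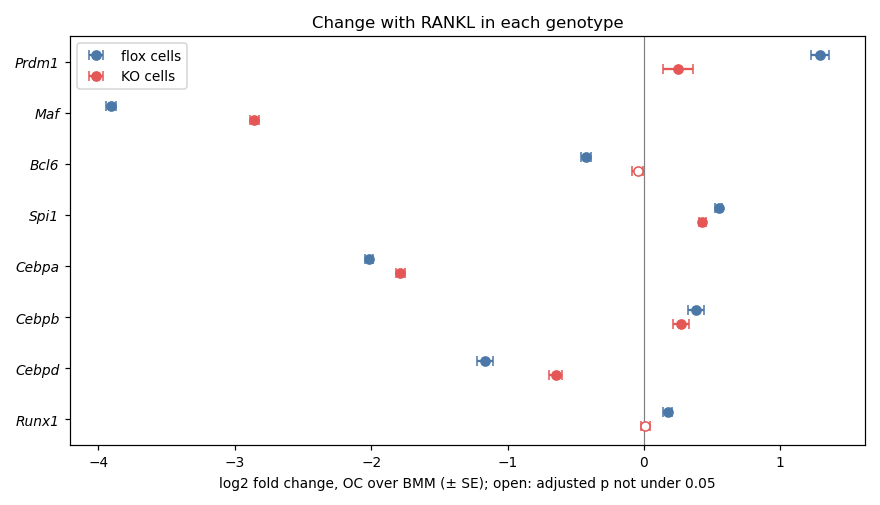
log2 fold change with RANKL (horizontal axis, OC over BMM, ± SE) of the 8 genes in flox and KO cells; open circles did not pass an edgeR adjusted p of 0.05. The KO point lies nearer to 0 than the flox point for each gene, by 1.05 in Maf and 1.04 in Prdm1.

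By genotype, 2 of the 8 genes rose (Maf and Cebpd) and 5 fell (Prdm1, Bcl6, Cebpa, Spi1 and Runx1) in BMM, and the same genes passed with the same signs in OC. Over all tested genes, 19.3% rose and 20.6% fell in BMM (39.9% in all), and 21.4% rose and 19.9% fell in OC (41.3% in all). The groups did not overlap in 7 of the 8 genes in each culture, against 46.6% of all tested genes in BMM and 51.3% in OC. Changes over 1.5-fold that passed were seen in Prdm1 alone in BMM, where 9.02% of all genes did so, and in Prdm1, Maf and Cebpd in OC, where 8.75% did. The genotype difference was larger in OC than in BMM for Prdm1, Maf, Cebpd, Spi1 and Runx1 and larger in BMM for Bcl6 and Cebpa. For these 7 genes the contrast of the 2 genotype differences is the same test as that of the RANKL effects given above.

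**Figure D4:**
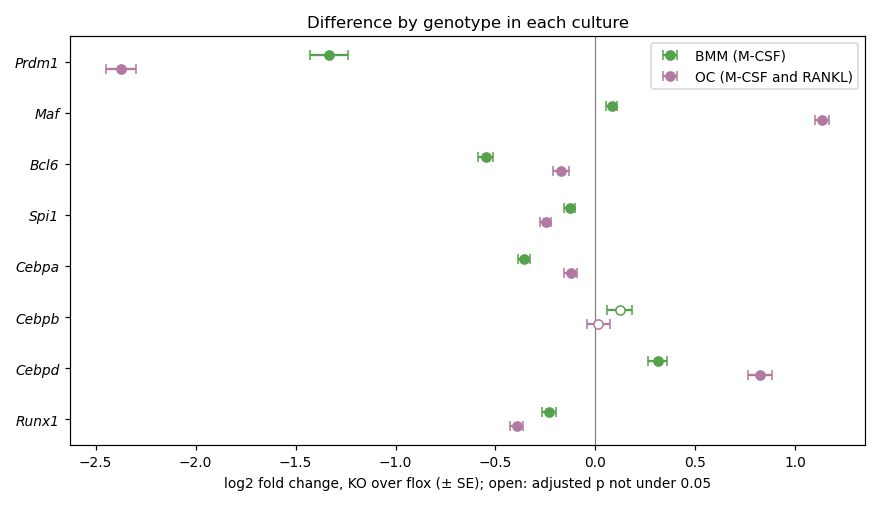
log2 fold change by genotype (horizontal axis, KO over flox, ± SE) of the 8 genes in BMM and OC; open circles did not pass an edgeR adjusted p of 0.05. Prdm1 lies farthest to the left, at -1.33 in BMM and -2.37 in OC, and Maf in OC farthest to the right, at 1.13.

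Genes known as repressed by PRDM1 in osteoclast precursors or B cells were read next, from a list of 8 of which 7 were tested and 1 is Bcl6. With RANKL, 1 rose and 6 fell in flox cells (median log2 fold change -1.27, beside -0.004 over all tested genes), and 1 rose and 5 fell in KO cells (median -1.22, beside 0.002). Over all tested genes 37.0% rose and 37.8% fell in flox cells, and 35.5% rose and 35.0% fell in KO cells. Irf8, a macrophage factor that holds back osteoclast formation, fell from 199 ± 2.16 to 31.2 ± 0.650 CPM in flox and from 211 ± 1.75 to 47.0 ± 1.09 CPM in KO cells. Its fall was smaller in KO cells by 0.51 on the log2 scale (SE 0.053, edgeR adjusted p = 1.04e-10), and KO_OC lay above flox_OC (0.59 in log2 units, edgeR adjusted p = 4.64e-16). The list as a whole split by genotype in OC, with 3 genes higher, 2 lower (Myc, -0.27, and Bcl6, -0.17) and 2 not called (median -0.02, beside 0.006 over all tested genes), and in BMM with 2 higher and 3 lower. Over all tested genes 21.4% were higher and 19.9% lower in OC, and 19.3% were higher and 20.6% lower in BMM. Id3 (-1.27 and -1.22 in flox and KO cells) and Bach2 (-1.58 and -1.36, at no more than 3.56 CPM in a group mean) fell as well. Myc, also listed, rose (2.08 and 1.85). For the whole list the difference of the effects passed with a positive sign in 3 genes, Irf8 and Bcl6 among them, where 12.3% of all tested genes did so.

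Of the 3 osteoclast genes linked to repression by BCL6, all rose with RANKL in both genotypes, where 37.0% of all tested genes rose in flox and 35.5% in KO cells. Nfatc1, the master transcription factor gene of osteoclasts, rose from 99.3 ± 2.60 to 350.1 ± 1.82 CPM in flox and from 116 ± 1.79 to 198 ± 3.78 CPM in KO cells. Its rise was smaller in KO cells by a log2 difference of -1.05 (SE 0.043, edgeR adjusted p = 1.09e-23). Ctsk, the collagenase gene of resorption, also rose less (difference -0.58, edgeR adjusted p = 7.63e-09), whereas the fusion gene Dcstamp rose by 1.959 in flox and 2.15 in KO cells in log2 units and the gap of 0.19 missed the threshold (edgeR adjusted p = 0.243). By genotype, in OC Nfatc1, Ctsk and Dcstamp were lower in KO cells (-0.82, -0.34 and -1.33 in log2 units), whereas in BMM Nfatc1 (0.23, edgeR adjusted p = 1.51e-07) and Ctsk (0.24, edgeR adjusted p = 3.81e-04) were higher and Dcstamp (-1.53) was lower.

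**Figure D5:**
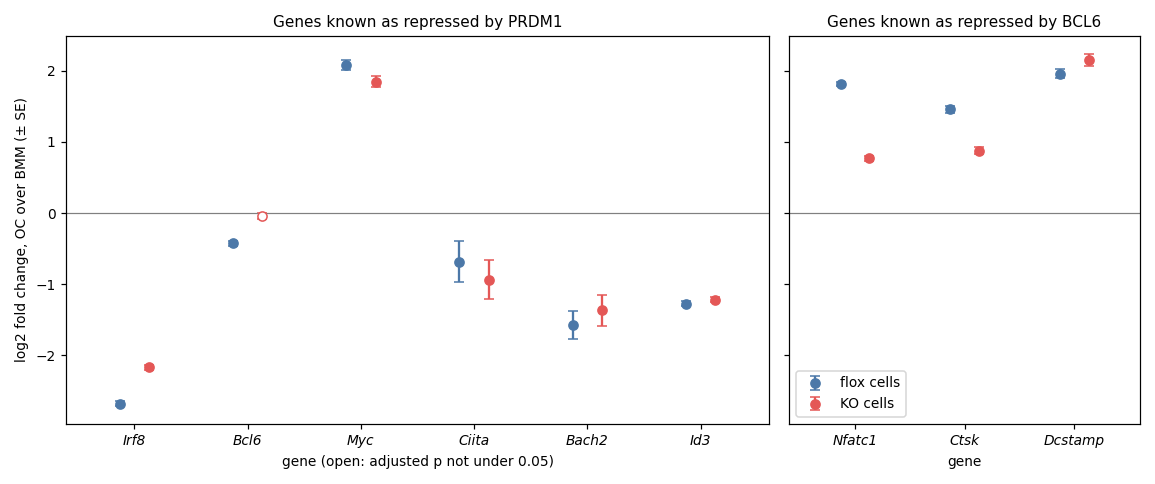
log2 fold change with RANKL (vertical axis, OC over BMM, ± SE) in flox and KO cells for 6 genes known as repressed by PRDM1 (left) and 3 by BCL6 (right); open circles did not pass an edgeR adjusted p of 0.05. Irf8 and Bcl6 lie lower in flox than in KO cells, and Nfatc1 lies higher in flox (1.82) than in KO cells (0.77).

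Genes of mature macrophages, from a list of 12, fell with RANKL in 12 of 12 cases in flox and in 11 of 12 in KO cells, where 37.8% and 35.0% of all tested genes fell (medians -2.12 and -1.75, beside -0.004 and 0.002 over all genes). The largest fall was that of the haemoglobin scavenger gene Cd163 (-4.72 in flox and -4.32 in KO cells), followed in flox by the factor XIII gene F13a1 (-3.15). By genotype, 11 of these 12 fell and 1 rose in BMM, where 20.6% of all tested genes fell, while in OC 5 rose, 4 fell and 3 did not pass, where 21.4% of all genes rose and 19.9% fell. The complement genes C1qa, C1qb and C1qc changed by -0.37, -0.19 and -0.22 in BMM and by 0.10, 0.16 and 0.12 in OC. The 5 genes tied to macrophage self-renewal split, with 3 up and 2 down under RANKL in each genotype: Myc, Klf4 (1.66 in flox) and Ccnd1 (0.25) rose and Klf2 (-1.55) and Jun (-0.40) fell.

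Spi1 itself rose with RANKL in both genotypes. Of 15 genes known as PU.1 targets, 2 rose and 12 fell with RANKL in flox cells, where 37.0% of all tested genes rose and 37.8% fell. In KO cells 2 rose and 11 fell, where 35.5% of all genes rose and 35.0% fell. The medians were -0.80 and -0.55, beside -0.004 and 0.002 over all tested genes. The 2 listed genes that rose were the osteoclast genes Acp5 (2.19 in flox and 1.01 in KO cells) and Ctsk. The immunoglobulin receptor gene Fcgr1 fell most (-3.38 and -2.77). The difference of the RANKL effects passed with a positive sign in 10 and a negative sign in 2 of the 15, where 12.3% and 9.53% of all tested genes did. Of 12 genes known as C/EBP targets only 8 were tested. With RANKL 1 rose and 3 fell in flox cells, led by the G-CSF receptor gene Csf3r (-2.67). In OC 3 were higher and 3 lower in KO than in flox cells, where 21.4% of all tested genes were higher and 19.9% lower. The lysozyme gene Lyz2, which carries the Cre in KO cells, changed by -1.04 and -0.75 with RANKL in flox and KO cells, and the granulocyte genes Mpo, Elane and Prtn3 had at most 3 counts in any library.

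Relatives and partners moved in both directions. Over all tested genes, 37.0% rose and 37.8% fell with RANKL in flox cells, and 35.5% rose and 35.0% fell in KO cells. With the KO genotype 19.3% rose and 20.6% fell in BMM, and 21.4% rose and 19.9% fell in OC. The difference of the RANKL effects passed with a positive sign in 12.3% and a negative sign in 9.53% of all genes. Among 6 tested MAF relatives and partners, 3 rose and 3 fell with RANKL in each genotype. With the KO genotype 5 fell and 0 rose in BMM, whereas in OC 2 rose and 0 fell. The difference of the RANKL effects passed in 2 of them, with a positive sign. Of 5 tested RUNX relatives and partners, 2 rose and 2 fell with the KO genotype in BMM and 1 rose and 2 fell in OC. The partner gene Cbfb rose by 0.13 in BMM and 0.12 in OC with the KO genotype, while Runx3 fell by 0.74 and 0.89 and Runx2 by 2.14 and 1.79. Runx2 was low, at 6.19 CPM in flox_BMM and 1.41 in KO_BMM, and 11.8 in flox_OC and 3.40 in KO_OC. Among 13 tested ETS relatives of PU.1, 4 rose and 7 fell with RANKL in flox cells, including Spic (1.79, from 0.658 to 2.28 CPM), Ets1 (-1.99) and Fli1 (-1.49). Of 4 other C/EBP genes, Cebpe (1.25, from 0.512 to 1.23 CPM) and Cebpz (0.81) rose and Cebpg (-0.75) and Ddit3 (-0.68) fell with RANKL in flox cells. Cebpg alone passed by genotype, in BMM (-0.11). Among 9 genes of BCL6 corepressors and its paralogue, 1 rose and 5 fell with RANKL in flox cells, including Kdm2b (-0.86) and Bcorl1 (-0.51). Of 8 tested other PRDM genes, Prdm16 rose with the KO genotype in BMM (0.98) and OC (1.21), at no more than 4.86 CPM in a group mean. Of 7 PRDM1 corepressor genes, Prmt5 rose (1.22) and Tle3 fell (-1.91) with RANKL in flox cells, and Tle3 was higher in KO cells in both cultures (0.50 and 0.81). Among 16 other tested macrophage transcription factor genes, 6 rose and 8 fell with RANKL in flox cells, and the difference of the effects was positive in 6 and negative in 4, with the most negative values in Gata2 (-1.79, at no more than 2.96 CPM in a group mean), Bhlhe40 (-1.05) and Tfec (-0.79).

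Likeness of pattern was measured as Pearson's r of log2 CPM over the 12 libraries, which fall into 4 groups, among 9673 named genes with a mean of at least 5 CPM. Runx1 was the gene most like Prdm1 (r = 0.989) and Prdm1 the gene most like Runx1, although Prdm1 spanned a far wider range; Alas1 and Csf2rb followed for Prdm1 and Atp6v0d2 and Hipk2 for Runx1. For Maf the closest genes were Tm6sf1, Rnase4 and Mertk (r = 0.999 each), and for Bcl6 Trib1 (0.977), Kitl and Sh3bp2. For Spi1 they were Glipr1 (0.998), Malt1 and Drg1, for Cebpa Ypel5 (0.999), Trem2 and Cyth4, for Cebpb Psmg4 (0.975), Prmt7 and Pcbp1, and for Cebpd Sirpb1c (0.994), Dmpk and Tlr3. Within the set, Maf ran with Cebpa (r = 0.950) and Cebpd (0.924). Spi1 ran against Maf (-0.979), Cebpd (-0.971) and Cebpa (-0.877). Cebpb ran against Cebpa (-0.89) and Maf (-0.838), and Prdm1 ran against Cebpd (-0.820).

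Some markers of other cell types moved with genotype beside these genes. All 10 tested stromal, fibroblast and osteoblast markers of 15 fell in KO cells in both cultures, where 20.6% of all tested genes fell in BMM and 19.9% in OC. The summed level of this list was 216 to 234 CPM in flox_BMM, 68.2 to 77.0 in KO_BMM, 183 to 184 in flox_OC and 56.0 to 65.3 in KO_OC. One of the 10 is Runx2, also counted above as a RUNX relative, which rose with RANKL in flox (0.93) and KO cells (1.27). Within that list Lum, Sp7, Alpl and Bglap had at most 3 counts in any library. The 6 megakaryocyte and platelet markers summed to 343 to 408, 48.0 to 52.1, 134 to 141 and 15.2 to 16.2 CPM in the same order, nearly all from Pf4, and Gp9 had at most 1 count in any library. The 10 neutrophil and granulocyte precursor markers summed to 79.0 to 83.3, 26.2 to 28.7, 34.7 to 36.8 and 10.6 to 12.4 CPM, most of it from Mmp8 (72.9 ± 1.92 CPM in flox_BMM and 28.4 ± 0.513 in flox_OC). The 8 T and NK cell markers summed to 97.5 to 99.8, 57.3 to 61.9, 78.2 to 87.5 and 40.4 to 44.8 CPM, nearly all from Il7r, and Cd3e, Cd3g and Trac had at most 1 count in any library. The 5 endothelial markers summed to 39.6 to 45.0, 27.8 to 31.2, 27.3 to 28.2 and 16.9 to 18.2 CPM, mostly from Kdr. Tek had at most 2 and Pecam1 at most 7 counts in any library. The 6 adipocyte markers summed to 30.7 to 31.1, 17.8 to 19.5, 34.7 to 38.2 and 34.6 to 37.6 CPM, nearly all from Fabp4 and Pparg. Plin1, Cidec and Lep had 0 counts in every library, and Adipoq at most 1. The 8 dendritic cell markers summed to 168.9 to 178.4, 128.5 to 146.6, 164.5 to 175.8 and 148.6 to 153.9 CPM, chiefly from Itgax. Stromal cells can express Cebpb, Cebpd, Maf and Runx1, and the part of such cells in the genotype differences of these genes was not tested. The 8 monocyte markers summed to 428 to 487 CPM in flox_BMM, 454 to 474 in KO_BMM, 203 to 206 in flox_OC and 420 to 430 in KO_OC. None of the 6 mast cell and basophil or 5 erythroid markers exceeded 3 counts in any library, and of the 7 haematopoietic progenitor markers, which could carry Runx1, the sum was 5.14 to 11.2 CPM over all libraries.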

How the data were processed

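The deposited files give unscaled counts of reads per gene, 1 file for each library. STAR 2.0.4b and the build GRCm38 are named in the submitters' processing notes. Counting, per the file headers, used featureCounts 1.4.5-p1 on exons of Ensembl release 76 without regard to strand, and the deposited exonic length (an other value) served for levels per kilobase. No option for shared or multiply aligned reads is in the headers. Symbols came from GENCODE M21, for 40254 of 41388 identifiers, and promoter windows from RefSeq (GRCm38.p6), found for 5 of the 8 genes.

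edgeR 4.0.16 (R 4.3.3) was fitted to all 12 libraries with 4 group means, TMM factors, its default low-count filter and robust quasi-likelihood F tests. The scripts were tested on simulated data. A gene was called when its adjusted p (Benjamini-Hochberg, 13030 genes) was under 0.05. SE was derived from F, as the size of the log2 change divided by the root of F. Levels are CPM with TMM factors. The alternatives were other scalings, no filter, DESeq2 1.42.0, fits of only the groups compared, each library left out and a replicate block.

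The 8 genes, the gene and marker lists, the motifs and the tests were chosen with earlier results of these data known. The text names, for each list, up to 4 called genes with the largest change and at least 1 CPM, and for each of the 8 genes the 3 most alike. Some genes are not reported here. Other list members the text names were picked after their values were seen. No library repeated another of its group, since the chi-square of each pair exceeded its degrees of freedom 1.23 to 5.05 times.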

Additional observations from a re-analysis of the deposited data

Results flagged for a closer look

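The effect of RANKL differed between KO and flox cells, by the interaction term of the edgeR fit, in 7 of the 8 genes. The difference of log2 fold changes, KO minus flox, was 1.05 for Maf (edgeR adjusted p = 2.88e-23), -1.04 for Prdm1 (1.63e-08), 0.51 for Cebpd (1.05e-06), 0.38 for Bcl6 (3.52e-07), 0.23 for Cebpa (7.74e-05), -0.16 for Runx1 (0.00865) and -0.12 for Spi1 (0.015). Over all tested genes 21.9% passed this test. Each of the 7 kept its sign and its call under every alternative in which the term could be fitted. Osteoclast markers as a whole summed to 743 to 765 CPM in flox_OC and 379 to 396 in KO_OC, with Nfatc1 the largest part. The part of this gap in the 7 differences was not tested.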

How the results depend on the processing

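The numbers of called genes and of called members stayed within 1.5 times their value in all 5 comparisons under every alternative. With single libraries left out, called genes ranged from 4515 to 5190 by genotype in BMM, 4703 to 5749 by genotype in OC, 9377 to 9810 for RANKL in flox, 8745 to 9368 for RANKL in KO and 2447 to 3288 for the difference. Called members ranged from 6 to 8, 7 to 7, 8 to 8, 5 to 6 and 7 to 7 in the same order. Of 40 pairs of a member and a comparison, 34 kept direction and call under all alternatives run. The exceptions were small changes. For RANKL in KO cells, Bcl6 turned to 0.090 with library size alone, and Runx1 to -0.0052 with no low-count filter. Leaving out single libraries gave Runx1 values from -0.012 (without KO_BMM library 3) to 0.017, with -0.0040 without KO_OC library 3. Cebpb by genotype in OC ran from -0.026 (without KO_OC library 1) to 0.057, with -0.022 without flox_OC library 2. With the settings of the report none of these 3 changes passed. Prdm1 with RANKL in KO cells missed the threshold with DESeq2 (0.25, adjusted p = 0.0900) and with no filter (0.24, adjusted p = 0.0578). The cause was not tested. Library size alone moved the median of all tested genes by 0.16 (RANKL in flox) and 0.14 (RANKL in KO). Whether same-numbered libraries of different groups share a mouse or a batch is not labelled. Deviations from the group mean correlated between same-numbered libraries by -0.072 to 0.081 over genes. With 3 libraries per group, these values cannot settle whether the numbers pair samples. With the number as a replicate block, all 40 member results and all 10 counts kept their call (for example log2 fold change -2.37 for Prdm1 by genotype in OC). Fits of only the groups compared gave no value for the difference of RANKL effects. Depth limits Prdm1 most, at 112 counts in the lowest library.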
